A study of Danio rerio with 45 samples.

Results

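The transcriptome of zebrafish blastula explants given 6 pg of ndr2 mRNA was compared with that of uninjected explants at 4 hours post fertilization (hpf), with 3 libraries in each group, chosen by their titles from 45 libraries of the series. All explants were of the AB strain and were animal-pole tissue, about the upper part of the blastula, cultured in agarose-coated dishes. The injected embryos received the mRNA in 1 cell of the animal pole at the 128-cell stage, so an explant held both injected and uninjected descendants. Controls were uninjected, and no group given another mRNA was analysed here. Reference groups were uninjected controls at 5 and 6 hpf, explants with 2 or 10 pg of ndr2 mRNA at 4 hpf, and explants with 6 or 10 pg at later ages. The model was fitted to these groups together with the other groups of the series. Those were explants with 2 pg at 5 and 6 hpf, and explants with 10 pg treated with cycloheximide (CHX in the titles) at 4, 5 and 6 hpf.

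Nodal ligands are secreted members of the TGF-beta family. They bind activin-type receptors together with an EGF-CFC co-receptor, and the Smad2 and Foxh1 proteins then switch on target genes in the nucleus. In the zebrafish blastula this signal specifies endoderm and axial mesoderm, and among its targets are the Lefty proteins, which block the ligand outside the cell. The same hours hold the main wave of zygotic gene activation, when maternal transcripts decline and the genes of the embryo begin to be transcribed.

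The 6 libraries held between 19370609 and 25524210 counts, and those of the series between 12137856 and 28551066. Levels are given in CPM, the counts of a gene relative to the scaled total of its library, with the standard deviation over 3 libraries unless another n is given. Changes are log2 fold changes with their standard errors, from edgeR quasi-likelihood tests, and rose, fell and called refer to a Benjamini-Hochberg adjusted p below 0.05 over 21075 tested genes. The labels do not say that replicates came from separate clutches, so the p-values measure the spread between libraries within groups, which may be technical. That spread was estimated over the 43 fitted libraries of all 15 groups, not over the 6 compared libraries alone. In such bulk samples, fewer cells of a type and less RNA per cell cannot be told apart. The column of replicate 3 of the 10 pg group at 4 hpf was equal in all genes to that of replicate 3 of the CHX-treated 10 pg group at 4 hpf. Both were left out, so the 10 pg group at 4 hpf has n = 2. On the genes that change with age in controls, the libraries with 6 pg lay on average 0.299 of the way from controls of 4 hpf to controls of 5 hpf, and those with 2 pg 0.425 of the way. Per the labels, the sample descriptions carry other figures than the titles in the place of the dose, and the titles were followed.

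At 4 hpf, 1778 genes were higher with 6 pg than in the controls and 1528 were lower, which is 8.44% and 7.25% of the genes tested (edgeR). Each of them was set against 2 references. A gene was called Nodal-type where it was also higher, or also lower, with 10 pg at 6 hpf, a comparison that shares no library with the one at 4 hpf. That reference held 100 higher genes (0.474% of those tested) and 0 lower ones, with 208 lower at an unadjusted p below 0.05 and 0 by DESeq2. A gene was called age-type where it changed in the same direction between control explants of 4 and 5 hpf, where 28.4% of the tested genes rose and 25.7% fell. That comparison rests on the same 3 control libraries of 4 hpf, and its split depended on scaling: with library totals alone 4200 genes rose and 7494 fell, in place of 5981 and 5426, as the median of all genes moved from 0.03 to -0.41. By this rule 23 genes were Nodal-type only, 13 were of both types, 2336 were age-type only and 934 were of neither type. The 36 Nodal-type genes, the injected ndr2 among them, made up 2.02% of the genes that rose, and none of the genes that fell was Nodal-type. The counts of called genes moved with single libraries. They fell to 857 higher and 770 lower without control replicate 1, to 1047 and 964 without control replicate 2, to 1023 and 700 without 6 pg replicate 2, and to 1180 and 948 without 6 pg replicate 3.

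**Figure D1:**
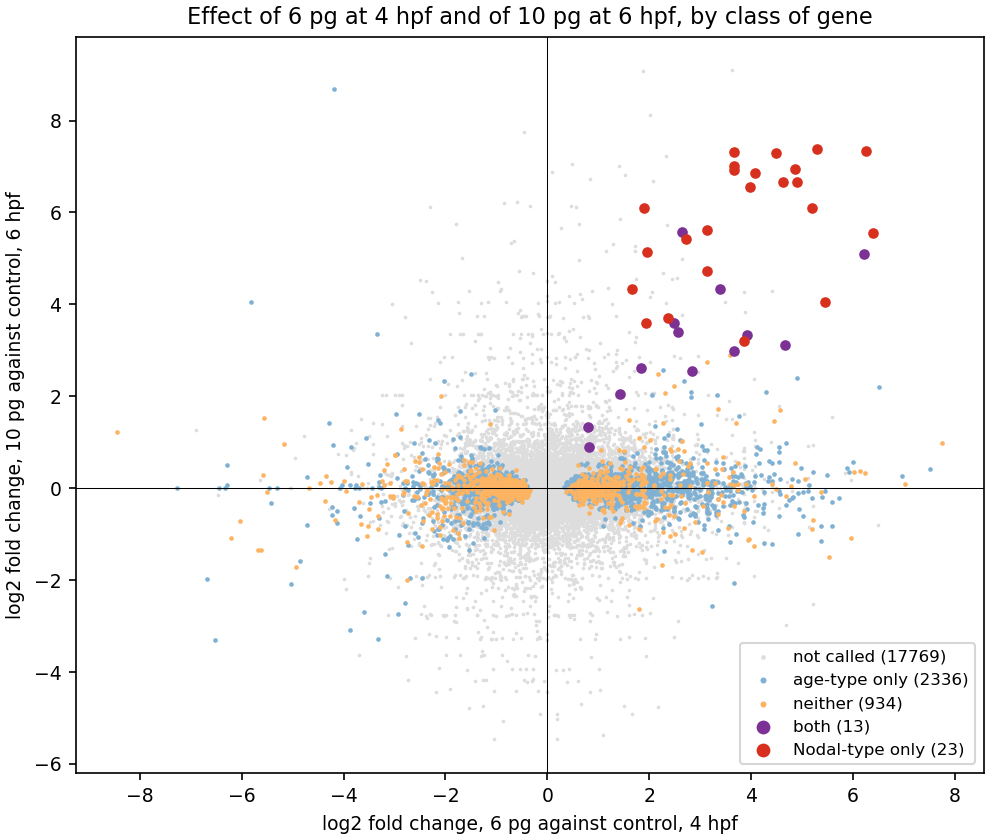
Log2 fold change of each tested gene with 6 pg at 4 hpf (horizontal axis) against that with 10 pg at 6 hpf (vertical axis), coloured by class. The 23 genes of Nodal type only and the 13 of both types lie at the upper right, and the 2336 genes of age type only and the 934 of neither type spread along the horizontal axis.

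Of the 100 genes that were higher with 10 pg at 6 hpf, 36 rose, 4 fell and 60 were not called in the comparison of 6 pg with control at 4 hpf. Their median change was 1.21, against 0.012 over all genes tested, of which 8.44% rose and 7.25% fell. In 35 of the 36 genes that rose, all 3 libraries with 6 pg lay above all 3 controls, and the exception was sox32. The genes were chosen by a call between these same libraries, which largely fixes that count. Replicate 2 was the highest of the 3 libraries with 6 pg in 25 of the 36 genes, and replicate 3 was the lowest in 19. When each of the 6 libraries was left out in turn, 22 of the 36 genes were called in every fit. By library, 26 of the 36 were called without 6 pg replicate 2, 26 without control replicate 1, 26 without control replicate 2, and between 31 and 34 in the other fits. Of all 3306 genes called in the main fit, 1676 were still called without 6 pg replicate 2, 1578 without control replicate 1 and 1910 without control replicate 2.

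The injected gene was the clearest of them. ndr2 (ENSDARG00000101279), also known as cyclops, stood at 0.317, 0.494 and 0.67 CPM in the controls and at 48.3, 44.4 and 32.0 CPM with 6 pg, a rise of 6.40 ± 0.59 (edgeR adjusted p = 1.17e-08). The groups lay far apart, and reads from the injected mRNA and from the gene itself are counted together. Uninjected explants of 5 hpf held 0.457, 1.03 and 0.487 CPM, so ndr2 was not called in the controls between 4 and 5 hpf (adjusted p = 0.593).

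The secreted inhibitors of Nodal, lft1 and lft2, rose together. lft1 (ENSDARG00000019920) measured 1.21, 1.12 and 2.05 CPM in the controls and 19.6, 26.3 and 9.29 CPM with 6 pg, a rise of 3.66 ± 0.61 (edgeR adjusted p = 0.000148). lft2 (ENSDARG00000044059) measured 1.33, 1.68 and 1.34 CPM in the controls and 19.9, 26.1 and 9.09 CPM with 6 pg, a rise of 3.66 ± 0.54 (adjusted p = 3.86e-05). Replicate 2 was highest and replicate 3 lowest for both genes, and no library of one group reached the other. In the controls both genes moved the other way with age, lft1 by -1.64 (adjusted p = 0.0336) and lft2 by -3.42 (adjusted p = 0.000106) from 4 to 5 hpf. With 2 pg they stayed near the controls, at 2.99, 1.31 and 1.26 CPM for lft1 and at 1.7, 1.52 and 1.12 CPM for lft2.

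ndr1 (ENSDARG00000057096), the second Nodal ligand gene of the blastula, known as squint, also rose. Its level was 1.27, 1.09 and 1.13 CPM in the controls and 3.31, 5.75 and 1.97 CPM with 6 pg, a rise of 1.65 ± 0.56 (edgeR adjusted p = 0.0404). All libraries with 6 pg were above the controls, but the call was lost without 6 pg replicate 1 or 2 and without any 1 control library, with a highest adjusted p of 0.227. The other members of the list of Nodal ligands and antagonists that could be tested did not pass. spaw, the ligand gene of left-right patterning, changed by 0.65 ± 0.85 (adjusted p = 0.652). gdf3, the maternal Vg1-type partner of the Nodal ligands, stood at 730, 646 and 545 CPM in the controls and at 639, 521 and 528 CPM with 6 pg (adjusted p = 0.631). In all, 4 of the 6 tested members rose and 0 fell, with a median change of 2.66, beside 8.44% of all genes that rose. This count and median include ndr2, whose rise holds the injected mRNA itself.

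Among the receptors and transducers of the pathway, 3 of 8 tested members rose, 1 fell and the median change was 0.33, beside 8.44% higher and 7.25% lower over all genes. mixl1 (ENSDARG00000069252), a homeobox factor of mesendoderm, rose from 3.87, 4.44 and 4.69 CPM in the controls to 14.4, 24.3 and 9.67 CPM, by 1.90 ± 0.63 (edgeR adjusted p = 0.0388). Its groups did not overlap, yet in the 6 fits that left out a library it was called only without 6 pg replicate 3, and its highest adjusted p was 0.179. tdgf1, the EGF-CFC co-receptor gene, rose by 0.81 ± 0.27 (adjusted p = 0.0386) and also rose in the controls from 4 to 5 hpf (adjusted p = 0.000949). The receptor gene acvr2ab rose by 0.87 ± 0.28 (adjusted p = 0.029), and the receptor gene ACVR2A fell by 1.34 ± 0.23 (adjusted p = 0.000191). The call of tdgf1 held only without 6 pg replicate 1 (highest adjusted p = 0.182) and that of acvr2ab was lost without 6 pg replicate 1 or 2 or control replicate 1 (highest adjusted p = 0.149). ACVR2A was called in each such fit (highest adjusted p = 0.00396). The transducer genes foxh1 and SMAD2 changed by -0.24 ± 0.21 (adjusted p = 0.47) and -0.42 ± 0.23 (adjusted p = 0.203).

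On the endoderm list, 6 of 14 tested members rose, 1 fell and 7 were not called, with a median change of 1.67, beside 8.44% higher and 7.25% lower over all genes. Among the 6 is mixl1, already counted with the receptors and transducers. The forkhead factor gene foxa3 (ENSDARG00000012788) measured 0.857, 1.71 and 3.56 CPM in the controls and 38.9, 60.1 and 36.7 CPM with 6 pg, a rise of 4.49 ± 0.82 (edgeR adjusted p = 0.000492). FOXA2 (ENSDARG00000003411), a forkhead factor of endoderm and axial midline, rose from 0.222, 0.263 and 0.377 CPM to 7.37, 12.6 and 5.90 CPM, by 4.90 ± 0.87 (adjusted p = 0.000378). The mesendoderm homeobox gene sebox, known as mezzo, rose from 0.19, 0.0329 and 0.377 CPM to 4.9, 3.81 and 5.86 CPM, by 4.62 ± 0.90 (adjusted p = 0.000805). For these 3 genes every library with 6 pg lay far above every control.

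The genes that commit cells to endoderm were less even between libraries. GATA5, a zinc-finger factor of endoderm and heart, measured 0.19, 0.165 and 0.251 CPM in the controls and 2.23, 7.33 and 0.886 CPM with 6 pg, a rise of 4.08 ± 0.96 (edgeR adjusted p = 0.00408). sox32, the SRY-box factor required for endoderm, measured 0, 0.165 and 0.209 CPM in the controls and 1.40, 4.32 and 0.193 CPM with 6 pg, a rise of 3.98 ± 1.05 (adjusted p = 0.00985). Replicate 3 with 6 pg lay within the range of the controls for sox32, and replicate 2 was the highest for both genes. Neither was called without 6 pg replicate 2, nor sox32 without control replicate 1, and the highest adjusted p over the fits was 0.0519 for GATA5 and 0.123 for sox32. SOX17, which acts after sox32, was near 0 in all 6 libraries, with 0.0317, 0 and 0.67 CPM in the controls and 0.359, 0.476 and 0.963 CPM with 6 pg (adjusted p = 0.469). GATA6 changed by 0.62 ± 0.75 (adjusted p = 0.614), and the zinc-finger gene OSR1 by 2.32 ± 0.93 (adjusted p = 0.0853).

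Genes of the prechordal plate and notochord gave a mixed picture. tbxta (ENSDARG00000101576), the T-box factor Brachyury of early mesoderm and notochord, rose from 1.49, 1.45 and 5.90 CPM to 31.7, 56.5 and 22.4 CPM, by 3.67 ± 0.85 (edgeR adjusted p = 0.00408). Controls of 5 hpf held 0.822, 0.216 and 5.17 CPM of tbxta, so the older controls overlapped those of 4 hpf. chrd, the secreted Bmp antagonist chordin, measured 3.17, 3.06 and 23.6 CPM in the controls and 33.0, 74.2 and 87.2 CPM with 6 pg, a rise of 2.72 ± 0.72 (adjusted p = 0.00989). On a log scale, control replicate 3 stood nearer to the libraries with 6 pg than to the other controls, and chrd was not called without control replicate 1 or 2 (highest adjusted p = 0.0674). noto, the notochord homeobox gene known as floating head, rose by 2.05 ± 0.63 (adjusted p = 0.0255), was also higher in controls of 5 hpf, and was lost without 6 pg replicate 2 or control replicate 1 or 2 (highest adjusted p = 0.133). Of the tested members, 4 of 6 on the notochord list and 3 of 9 on the prechordal plate list rose, and 0 and 1 fell. These lists share genes: the 3 on the prechordal plate list were chrd, FOXA2 and foxa3. Of them, chrd and FOXA2 are also on the notochord list, and FOXA2 and foxa3 on the endoderm list. The shares over all genes were 8.44% higher and 7.25% lower.

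**Figure D2:**
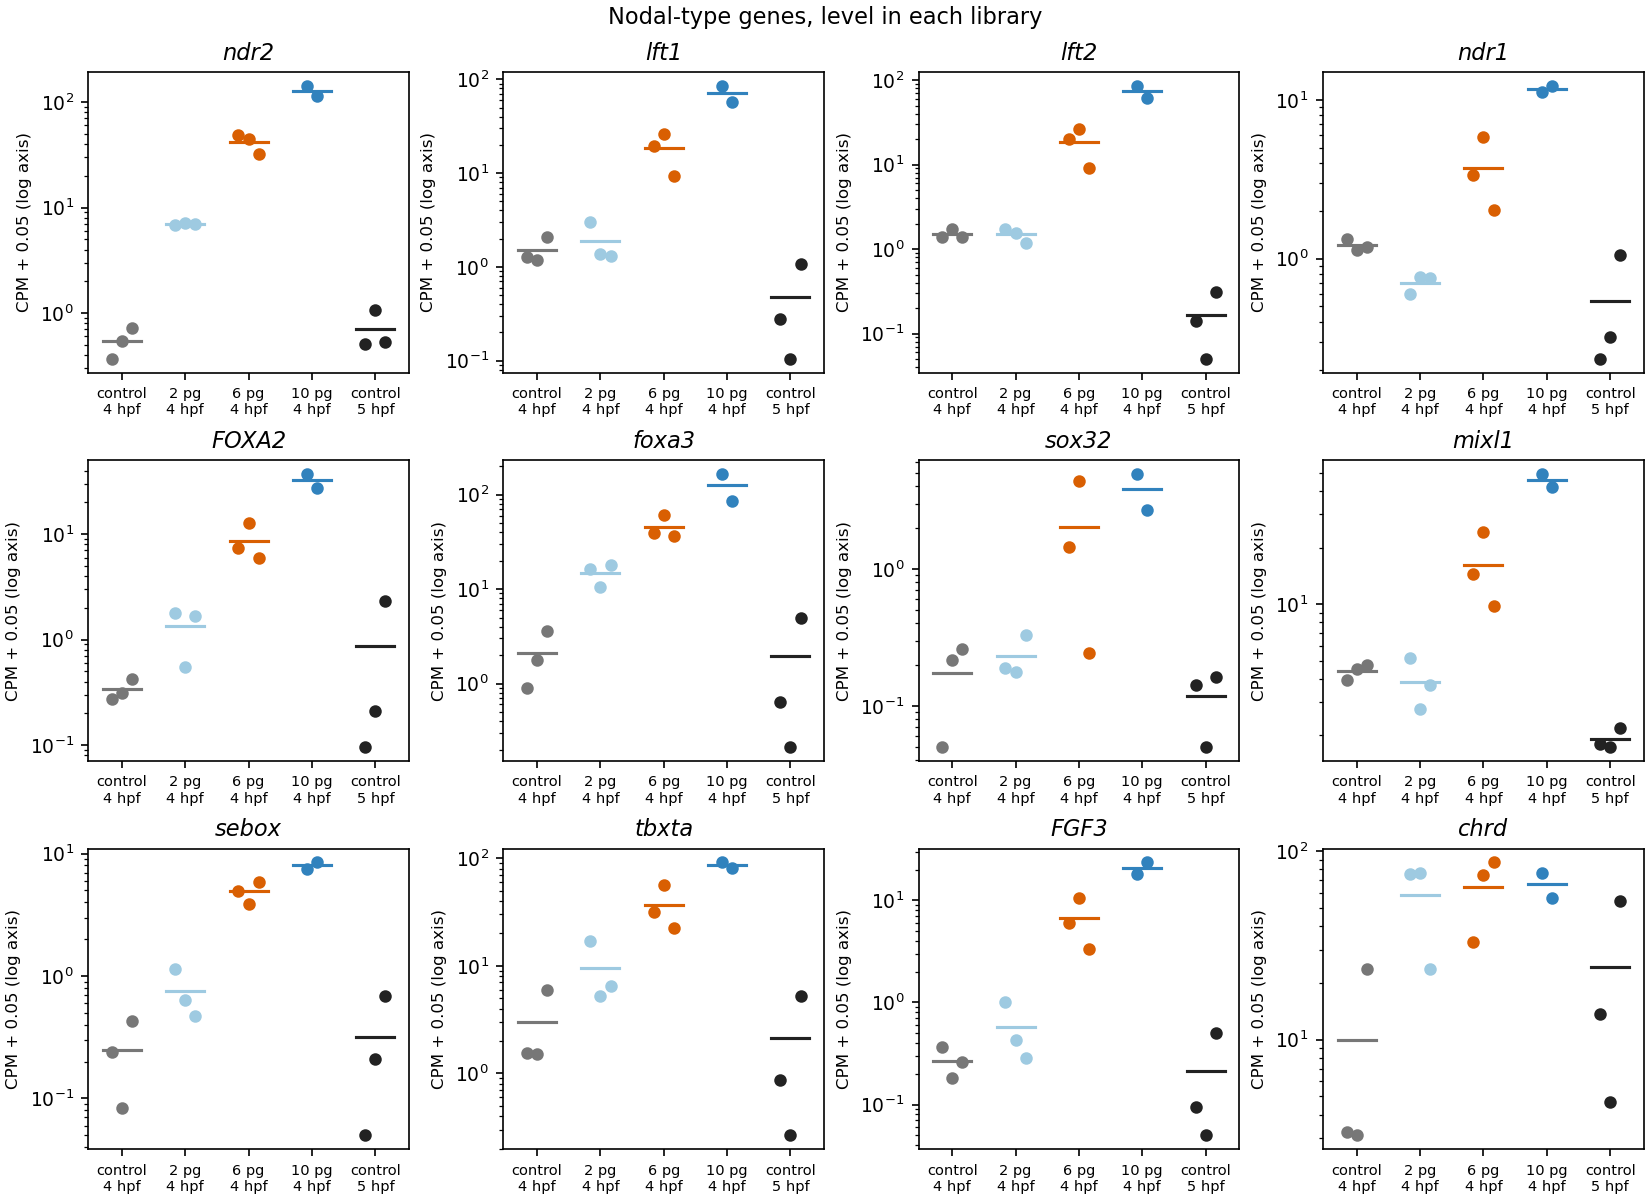
Level of 12 Nodal-type genes in each library (CPM plus 0.05, log axis) for controls, 2 pg, 6 pg and 10 pg at 4 hpf and controls at 5 hpf, where points are libraries and lines are means. The orange points with 6 pg lie above the grey controls of 4 hpf in every panel, apart from the lowest library of sox32, at 0.193 CPM.

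Of the organizer genes on the prechordal plate list, GSC and lhx1a were not called at 4 hpf. GSC, the organizer homeobox gene goosecoid, stood at 9.8, 8.33 and 14.4 CPM in the controls and at 35.3, 41.6 and 16.6 CPM with 6 pg, a change of 1.52 ± 0.60 (edgeR adjusted p = 0.0806). Its groups did not overlap. DESeq2 called it (adjusted p = 0.0462), as did edgeR with the 4 hpf libraries alone (adjusted p = 0.0154) and with the 6 libraries alone (adjusted p = 0.0274). lhx1a, a LIM homeobox gene of the same tissue, was at 9.27, 11.8 and 8.92 CPM in the controls and at 10.9, 12.3 and 8.79 CPM with 6 pg, a change of 0.09 ± 0.55 (adjusted p = 0.935). The lhx1a groups overlapped. At 6 hpf lhx1a was at 0.789 CPM in the controls and 92.2 CPM with 6 pg, and its effect at 6 hpf exceeded that at 4 hpf by 6.78 ± 0.88 (adjusted p = 2.08e-05). Of all genes tested, this signed difference was called above 0 for 2.48% and below 0 for 3.28%.

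The 4 genes that were higher with 10 pg at 6 hpf and lower with 6 pg at 4 hpf were foxa, fhdc2, dkk1b and ACSL1. foxa, a forkhead gene on the endoderm list, stood at 172, 135 and 202 CPM in the controls and at 108, 58.1 and 82.6 CPM with 6 pg, a change of -1.03 ± 0.35 (edgeR adjusted p = 0.0382). Controls of 5 hpf held 43.4, 43.7 and 33.9 CPM of foxa, lower again than both. dkk1b, a secreted Wnt antagonist, rested on 30 counts over the controls and 1 count over the libraries with 6 pg (adjusted p = 0.0365). ACSL1, an acyl-CoA synthetase gene, changed by -1.13 ± 0.33 (adjusted p = 0.0176) and fhdc2 by -1.51 ± 0.46 (adjusted p = 0.0234). All 4 calls were lost in at least 1 fit that left out a library, with highest adjusted p of 0.184, 0.219, 0.0734 and 0.14 for foxa, dkk1b, ACSL1 and fhdc2.

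On the Fgf signalling list, 7 of 14 tested members rose, 0 fell and 7 were not called, with a median change of 1.32, beside 8.44% higher and 7.25% lower over all genes. Fgf proteins act with Nodal in forming mesoderm. FGF3 (ENSDARG00000101540) rose from 0.317, 0.132 and 0.209 CPM in the controls to 6.02, 10.5 and 3.28 CPM, by 4.87 ± 0.85 (edgeR adjusted p = 0.000252). FGF4 rose from 0, 0 and 0.209 CPM to 3.39, 8.64 and 3.24 CPM, by 6.26 ± 1.14 (adjusted p = 0.000453), a fold that rests on 5 counts over the controls. fgf24 rose by 3.87 ± 0.78 (adjusted p = 0.000957). A gene with the symbol FGF8 (ENSDARG00000003399) rose by 5.20 ± 0.80 (adjusted p = 7.19e-05), from 0.19, 0.197 and 0.251 CPM to 5.74, 11.1 and 6.94 CPM. Since another gene carries this symbol, its name is uncertain, and it is not among the 14 tested members. The smallest change among these 5 ligand genes was that of fgf17, at 1.94 ± 0.56 (adjusted p = 0.0166), and it was not called without 6 pg replicate 2 or 3 or control replicate 1 or 2 (highest adjusted p = 0.0786).

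Of the feedback inhibitors on the Fgf signalling list, SPRY1, SPRY2 and spred2a rose with 6 pg and DUSP6, SPRY4 and IL17RD were not called. SPRY4 was at 2.98, 1.55 and 5.27 CPM in the controls and 6.66, 6.78 and 6.59 CPM with 6 pg, groups that did not overlap, with a change of 1.03 ± 0.68 (edgeR adjusted p = 0.319). IL17RD changed by -0.13 ± 0.29 (adjusted p = 0.8). SPRY1 rose from 0, 0.0658 and 0.167 CPM in the controls to 0.399, 3.37 and 2.12 CPM with 6 pg, by 4.67 ± 0.78 (edgeR adjusted p = 0.000138). The controls of 5 hpf held 2.1, 0.973 and 1.42 CPM of SPRY1, and the libraries with 6 pg were not called different from them (adjusted p = 0.609). SPRY2 rose by 1.43 ± 0.49 (adjusted p = 0.0438), a call lost without 6 pg replicate 2 or 3 or control replicate 1 or 2 (highest adjusted p = 0.186). spred2a, which is of the age type only, rose by 3.05 ± 0.55 (adjusted p = 0.000391) and lay below controls of 5 hpf, with a difference of -1.69 (adjusted p = 0.0061).

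The other Nodal-type genes included members of Wnt signalling and metabolism. wnt11f2, a Wnt ligand gene of gastrulation movements, rose from 5.39, 3.03 and 7.70 CPM in the controls to 33.6, 55.5 and 26.7 CPM, by 2.85 ± 0.60 (edgeR adjusted p = 0.00186), while 2 pg gave 12.9, 3.33 and 5.32 CPM. NOTUM, an extracellular enzyme that inactivates Wnt proteins, rose by 3.66 ± 0.71 (adjusted p = 0.000854), and its controls of 5 hpf, at 13.7, 14.1 and 30.7 CPM, overlapped the 5.06, 17.1 and 20.0 CPM with 6 pg. A gene with the symbol FZD8 (ENSDARG00000038569), a Wnt receptor by that name, which another gene shares, rose by 1.95 ± 0.53 (adjusted p = 0.0117). CYP27C1, a retinoid-modifying enzyme, rose by 6.21 ± 0.97 (adjusted p = 8.31e-05), and PFKFB3, a regulator of glycolysis, by 2.48 ± 0.48 (adjusted p = 0.000729).

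Low counts limited some of these genes. si:ch211-194i8.3 had 0 counts in the controls and 19 counts over the libraries with 6 pg, which makes it at least 7.12-fold higher with a floor of 3 counts over the control group. ccdc80l1 had 3 counts over the controls and 27 with 6 pg, a ratio of 10.1 with a 95% counting interval of 3.12 to 52.1, and it was not called without 6 pg replicate 2 or without any 1 control library (highest adjusted p = 0.304). lhx1b, a LIM homeobox gene, rose by 3.13 ± 0.88 (edgeR adjusted p = 0.0138) on 6 counts in the controls and 50 with 6 pg, and arl4ab, a small GTPase gene, by 2.36 ± 0.71 (adjusted p = 0.0222). lhx1b was lost without control replicate 2 (adjusted p = 0.0784), and arl4ab without 6 pg replicate 2 or control replicate 1 or 2 (highest adjusted p = 0.0891). The smallest rises were those of ZSWIM5 at 0.82 ± 0.21 (adjusted p = 0.00862) and of a gene with the shared symbol FSCN1, an actin-bundling protein by that name, at 0.81 ± 0.21 (adjusted p = 0.00794).

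The libraries with 6 pg at 4 hpf were also set against controls 1 h older. Of the 23 genes of Nodal type only, 21 were higher with 6 pg at 4 hpf than in controls of 5 hpf and 0 were lower. The class rule, a rise with 6 pg and none with age, largely fixes this count, and over all genes 20.8% were higher and 23% lower. The exceptions were chrd, at 1.41 above the older controls (edgeR adjusted p = 0.0918), and ccdc80l1 at 0.87 (adjusted p = 0.436). The libraries with 6 pg exceeded controls of 5 hpf by 7.08 for lft2 (adjusted p = 6.62e-09) and by 4.51 for foxa3 (adjusted p = 5.33e-05). Of the 13 genes of both types, 11 were not called against those controls, which also follows in large part from the rule that they rise with age. CYP27C1 stood above them by 2.66 (adjusted p = 0.00464) and ZSWIM5 below, with a difference of -1.67 (adjusted p = 3.15e-07).

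The doses were compared at 4 hpf. Between 6 and 2 pg, 3 genes were higher (0.0142% of those tested) and 1 was lower (0.00474%, edgeR), with 1020 and 1127 at an unadjusted p below 0.05. The 3 were ndr2 by 2.59 (adjusted p = 0.0319), lft1 by 3.31 (adjusted p = 0.0319) and lft2 by 3.66 (adjusted p = 0.00204). The count of higher genes was 43 without 2 pg replicate 2 and 0 without 2 pg replicate 3. Between 10 and 6 pg, with n = 2 for 10 pg, 7.29% of the tested genes were higher and 8.12% lower, and without 10 pg replicate 2 the counts fell from 1537 and 1712 to 156 and 196. With 10 pg, ndr2 was higher by 1.62 (adjusted p = 0.0208), lft2 by 2.00 (adjusted p = 0.008), lft1 by 1.95 (adjusted p = 0.0218), lhx1b by 2.33 (adjusted p = 0.0326) and ndr1 by 1.67 (adjusted p = 0.0492). These tests share the libraries with 6 pg with the comparison that chose the genes. Of the 23 genes of Nodal type only, 6 were called higher with 10 than with 6 pg and 0 lower, with a median difference of 1.31. Of the 13 genes of both types, 0 were higher and 2 lower, with a median of -0.706. Of the 1359 age-type only genes that rose with 6 pg, 1 was higher and 812 were lower with 10 than with 6 pg. Of the 977 that fell, 539 were higher and 0 lower. In the class of neither type, 0 of 383 genes that rose were higher and 253 lower, and 403 of 551 that fell were higher and 0 lower. The shared libraries with 6 pg move these counts in that direction. In 16 of the 36 Nodal-type genes both libraries with 10 pg lay above all 3 with 6 pg. That count was not made over all genes, so it cannot be read as particular to the Nodal-type genes. chrd, at 76.7 and 56.4 CPM with 10 pg, and FGF8 were not among the 16.

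The age-type genes were 76.4% of the genes that rose with 6 pg at 4 hpf and 63.9% of those that fell, 1359 and 977 genes. Of the 1359 genes that rose, 753 were not called against controls of 5 hpf, 595 were lower than those controls and 11 were higher. Of the 977 that fell, 603 were not called against them, 349 were higher and 25 were lower. Over all genes, 20.8% were higher and 23% lower with 6 pg at 4 hpf than in controls of 5 hpf. Since the controls of 4 hpf enter both the comparison with 6 pg and the age reference, a control library that stands apart moves both in the same direction. An age reference without a shared library was the change between 4 and 5 hpf in explants with 10 pg, where 23% of the tested genes rose and 21.5% fell. Of 4801 genes that rose in it, leaving out genes called with ndr2 mRNA against controls of 5 or 6 hpf, 1266 were higher and 39 lower with 6 pg at 4 hpf, with a median change of 0.625. Of 4517 genes that fell in it, 14 were higher and 930 lower, with a median change of -0.517. Beside these stand 8.44% and 7.25% of all genes. With this reference in place of the controls, 21 genes were Nodal-type only, 15 of both types, 2207 age-type only and 1063 of neither type.

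The position of each library between the controls of 4 hpf (set to 0) and of 5 hpf (set to 1) was read from the mean log2 level of the rising genes minus that of the falling genes. On the genes of the control change it was -0.0235, -0.0928 and 0.116 in the 3 controls and 0.167, 0.350 and 0.379 with 6 pg, a mean of 0.299 ± 0.115. The libraries with 6 pg lay above all controls, and the exact two-sided permutation test gave p = 0.1, the smallest value that 3 against 3 libraries allow. These genes were called with the same controls of 4 hpf, so the test is not independent of how they were chosen. On the genes of the change with 10 pg the mean was 0.322 ± 0.112 (exact p = 0.1). On the genes that changed between 5 and 6 hpf in controls it was -0.051 ± 0.0999, and the libraries with 6 pg overlapped the controls (exact p = 0.6). Among the injected groups the mean position fell as the dose rose, with 0.425 ± 0.129 for 2 pg, 0.299 ± 0.115 for 6 pg and 0.112 and 0.115 in the 2 libraries with 10 pg. The mean of the uninjected controls, set to 0, was lower than all of these. The counts of called genes against the same controls also fell with dose. With 2 pg, 3160 genes were higher (15%) and 2959 lower (14%), and with 6 pg 1778 and 1528. With 10 pg, where n = 2, 29 were higher (0.138%) and 2 lower (0.00949%, edgeR). The labels give 1 age for all these groups, and what moved the position was not tested.

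**Figure D3:**
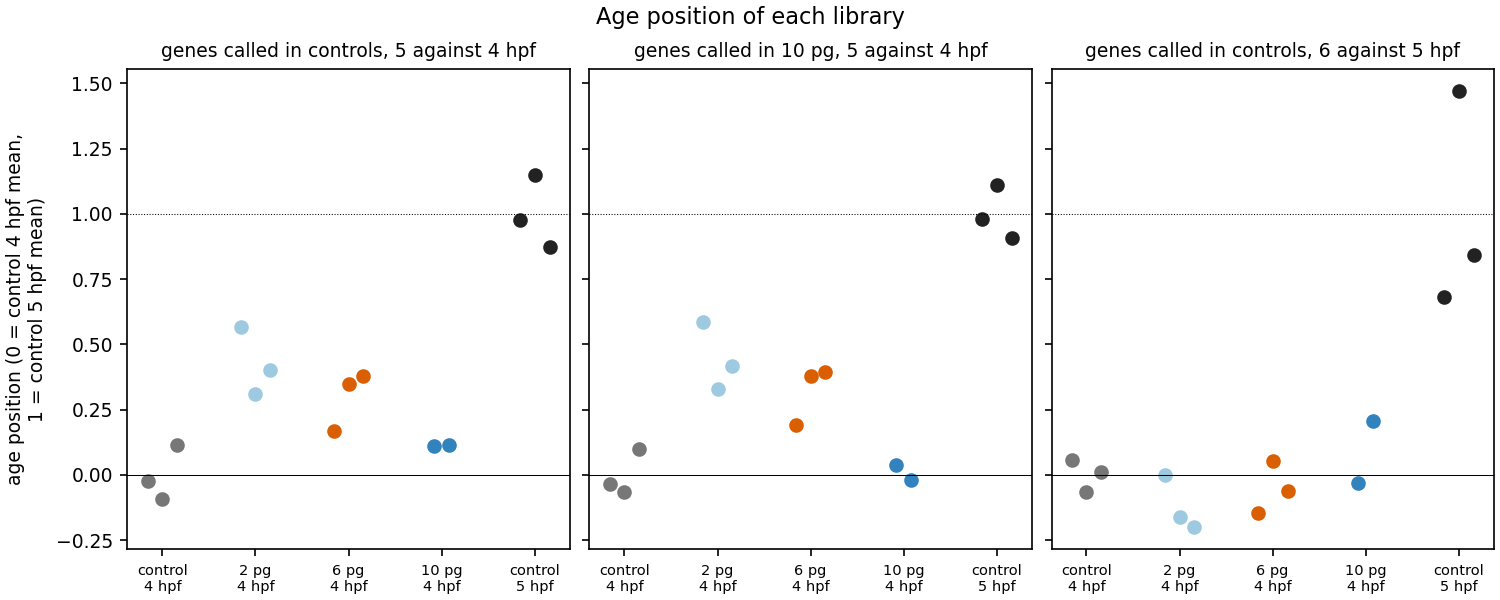
Age position of each library on 3 sets of genes, where 0 is the mean of the controls of 4 hpf and 1 that of 5 hpf, and points are libraries. The libraries with 6 pg lie at 0.167 to 0.379 on the genes of the control change from 4 to 5 hpf, between the controls of 4 hpf and those of 5 hpf, and around 0 on the genes that change from 5 to 6 hpf.

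With this position added to the fit as a covariate, 1430 genes were higher and 1309 lower, and 15 of the 36 Nodal-type genes were still called. Of all 3306 genes called in the main fit, 1430 were still called, a share close to that of the Nodal-type genes. The other calls of this fit were not made in the main fit. Among the genes of Nodal type only these included ndr2, lft1, lft2, FOXA2, foxa3, sebox, FGF3, FGF4, FGF8 and si:ch211-194i8.3, and among those of both types CYP27C1, SPRY1, wnt11f2 and PFKFB3. The rises were then 3.58 for lft2 (edgeR adjusted p = 0.000489), 3.73 for foxa3 (adjusted p = 0.00641) and 3.90 for FOXA2 (adjusted p = 0.00743).

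Mesoderm and Fgf-related genes of the age type carried some of the largest rises. FOXC1, a forkhead factor of mesoderm, measured 0.127, 0.0329 and 0.0419 CPM in the controls and 4.9, 11.6 and 3.97 CPM with 6 pg, a rise of 6.51 ± 0.95 (edgeR adjusted p = 3.61e-05) on 6 counts over the controls. In controls of 5 hpf it stood at 0.183, 1.46 and 0.862 CPM, below the libraries with 6 pg by 3.04 (adjusted p = 0.00132), and with 2 and 10 pg it reached 3.45, 0.802 and 2.15 CPM and 18.2 and 10.5 CPM. By the rule FOXC1 is age-type because it also rose in the controls and was not called with 10 pg at 6 hpf (2.19 ± 0.71, adjusted p = 0.516). FLRT3, a membrane protein that modulates Fgf signalling, rose by 4.90 ± 0.80 (adjusted p = 0.000147), to 10.4, 27.8 and 13.4 CPM, while its controls of 5 hpf were at 2.56, 12.3 and 10.1 CPM. With the age position in the fit the rises were 4.57 for FOXC1 (adjusted p = 0.000648) and 3.42 for FLRT3 (adjusted p = 0.00151).

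Other mesoderm genes lay between the ages. tbx16, the T-box factor known as spadetail, measured 32.9, 17.7 and 51.2 CPM in the controls, 79.8, 185 and 253 CPM with 6 pg and 651, 718 and 457 CPM in controls of 5 hpf, a rise of 2.35 ± 0.58 with 6 pg (edgeR adjusted p = 0.00637). aplnra, a receptor gene of gastrulation movements, rose by 2.00 ± 0.44 (adjusted p = 0.00258), from 5.90, 3.69 and 14.3 CPM to 17.5, 39.1 and 38.8 CPM, with 181, 140 and 97.3 CPM in controls of 5 hpf. For both genes the 3 groups did not overlap and the libraries with 6 pg were the middle one. On the list of ventrolateral and paraxial mesoderm, 4 of 19 tested members rose and 0 fell with 6 pg, all 4 of the age type, and 11 rose in the controls from 4 to 5 hpf. Beside these, 8.44% of all genes rose and 7.25% fell with 6 pg, and 28.4% rose in the controls.

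A few genes of the outer epithelium and epidermis rose. krt4, a keratin of the enveloping layer, measured 10.6, 6.88 and 29.2 CPM in the controls, 18.1, 57.3 and 108 CPM with 6 pg and 2750, 6040 and 1160 CPM in controls of 5 hpf, a rise of 1.98 ± 0.64 with 6 pg (edgeR adjusted p = 0.0327). Replicate 1 with 6 pg lay within the control range for krt4. On the enveloping layer list 4 of 27 tested members rose and 1 fell, with a median change of 0.53, whereas 22 rose in the controls from 4 to 5 hpf, with a median of 4.91. Beside these, 8.44% of all genes rose and 7.25% fell with 6 pg, and 28.4% rose in the controls. Without control replicate 1 or 2 or 6 pg replicate 2 or 3, 0 members of the enveloping layer list rose. The summed level of the list was 2111 to 2739 CPM in the controls, 2162 to 2976 CPM with 6 pg and 7152 to 31650 CPM in controls of 5 hpf. The epidermal genes TFAP2A and GATA2 rose by 1.32 ± 0.44 (adjusted p = 0.0401) and 1.39 ± 0.48 (adjusted p = 0.047). krt4, TFAP2A and GATA2 were each called only without 6 pg replicate 1 or control replicate 3 among the 6 fits that left out a library, with highest adjusted p of 0.219, 0.17 and 0.163, and with the age position in the fit their changes were -0.41, -0.24 and -0.081. ELF3, an epithelial ETS factor on the same list, fell by 3.20 ± 0.83 (adjusted p = 0.00875), and not without control replicate 2 (adjusted p = 0.304), which held 6.88 CPM beside 1.02 and 0.502 CPM in the other controls.

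Among cell-cycle genes, MCM7 and CCND1 rose as genes of the age type and BIRC5, MAD2L1 and cenpe, of neither type, fell. MCM7, a subunit of the replicative helicase, measured 141, 144 and 187 CPM in the controls and 442, 414 and 387 CPM with 6 pg, a rise of 1.40 ± 0.20 (edgeR adjusted p = 2.21e-05). CCND1, cyclin D1, rose by 1.92 ± 0.43 (adjusted p = 0.00286), from 119, 78.7 and 147 CPM to 260, 431 and 613 CPM. BIRC5, a chromosomal passenger protein also known as survivin, fell from 55.8, 32.8 and 27.5 CPM to 17.2, 11.7 and 19.3 CPM, by 1.27 ± 0.28 (adjusted p = 0.00206), and these 3 calls held in every fit that left out a library. The spindle checkpoint gene MAD2L1 fell by 0.78 ± 0.21 (adjusted p = 0.0103) and the kinetochore motor gene cenpe by 1.09 ± 0.31 (adjusted p = 0.0149), and they were lost without 6 pg replicate 3, MAD2L1 also without control replicate 1 and cenpe without control replicate 3 (highest adjusted p = 0.0878 and 0.0938). WEE1, bub1 and MCM4 also rose as genes of the age type. Their rises were 0.92 (adjusted p = 0.0154), 0.82 (adjusted p = 0.0401) and 0.45 (adjusted p = 0.0302). Each of these calls was lost in several fits that left out a library (highest adjusted p = 0.113, 0.19 and 0.185). In all, 5 of 32 tested members of the cell-cycle list rose and 3 fell, with a median change of 0.04, beside 8.44% higher and 7.25% lower over all genes.

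On the early zygotic list 7 of 27 tested members rose and 1 fell, all of the age type, with a median change of 0.73, against 19 that rose and 2 that fell in the controls with age. Without control replicate 1 or 2 or 6 pg replicate 2 or 3, 1 member rose. On the maternal list 2 of 23 rose and 2 fell, with a median of -0.17, against 3 and 16 with age. Beside both lists, 8.44% of all genes rose and 7.25% fell with 6 pg, and 28.4% rose and 25.7% fell with age. BTG1, an inhibitor of proliferation, rose from 33.1, 21.1 and 37.4 CPM to 72.7, 102 and 101 CPM, by 1.59 ± 0.24 (edgeR adjusted p = 4.23e-05). The germ-cell RNA-binding gene DAZL fell from 19.2, 18.1 and 17.1 CPM to 8.93, 6.74 and 8.98 CPM, by 1.14 ± 0.31 (adjusted p = 0.0122), close to the 6.99, 6.16 and 7.68 CPM of controls of 5 hpf, and was not called without 6 pg replicate 2 (adjusted p = 0.0725). zp3b, an egg-coat gene, rose by 0.75 ± 0.22 (adjusted p = 0.0199), and zp2.1, another egg-coat gene, fell by 1.41 ± 0.45 (adjusted p = 0.0307). The call of zp3b was lost without 6 pg replicate 2 or control replicate 1 (highest adjusted p = 0.0822), and that of zp2.1 held only without control replicate 2 (highest adjusted p = 0.109).

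**Figure D4:**
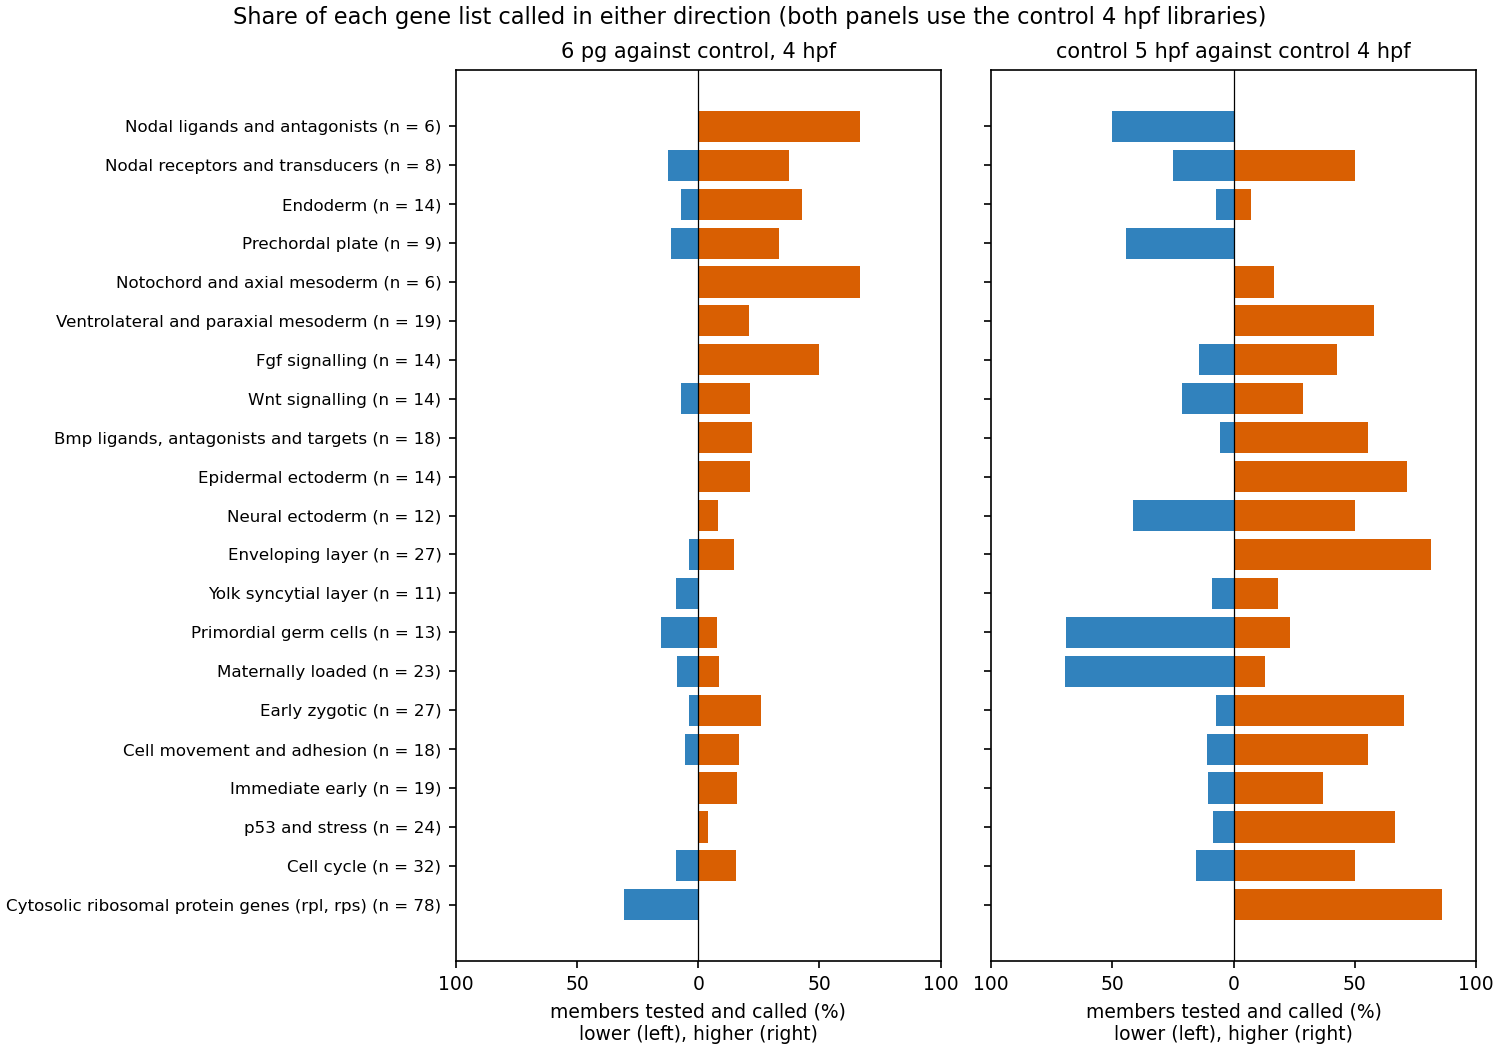
Share of the tested members of each gene list that were called lower (left, blue) or higher (right, orange) with 6 pg against controls of 4 hpf (left panel) and in controls of 5 against 4 hpf (right panel), which use the same controls of 4 hpf. Nodal ligands and antagonists rose with 6 pg (4 of 6, the injected ndr2 among them) and fell with age (3 of 6). Enveloping layer genes rose mainly with age (22 of 27), and the ribosomal protein genes fell with 6 pg (24 of 78) and rose with age (67 of 78). Of all genes tested, 8.44% rose and 7.25% fell with 6 pg, and 28.4% rose and 25.7% fell with age.

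Among the genes of neither type, TRPM6 was high with 2 and 6 pg and low with 10 pg. TRPM6, a magnesium channel gene, measured 0.793, 1.84 and 0.753 CPM in the controls and 36.1, 44.6 and 13.8 CPM with 6 pg, a rise of 4.79 ± 0.91 (edgeR adjusted p = 0.00068). It stood at 39.0, 20.0 and 37.3 CPM with 2 pg, at 1.62 and 0.46 CPM with 10 pg and at 1.69, 4.97 and 1.91 CPM in controls of 5 hpf, and 10 pg differed from 6 pg by -4.91 (adjusted p = 0.00247). The groups with 2 and 6 pg did not overlap with any of the others. dlb, the Notch ligand gene deltaB, rose by 3.14 ± 0.95 (adjusted p = 0.0229), from 0.508, 0.428 and 0.795 CPM to 5.18, 6.82 and 3.20 CPM, and was lost without 6 pg replicate 2 or control replicate 1 or 2 (highest adjusted p = 0.0886). TG, thyroglobulin, an age-type gene, was at 20.6, 11.9 and 0.385 CPM with 6 pg and at 0.112 and 0.0575 CPM with 10 pg, a rise of 5.50 ± 1.37 against the controls (adjusted p = 0.00659).

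Genes for cytosolic ribosomal proteins went against the age of the controls. Of 78 tested, 24 fell with 6 pg and 0 rose, with a median change of -0.486, while 67 rose from 4 to 5 hpf in controls, with a median of 1.17, and this list was added after the values had been seen. Beside these, 7.25% of all genes fell and 8.44% rose with 6 pg, and 28.4% rose in the controls. The summed level of the list was 10730, 8390 and 9619 CPM in the controls and 7271, 6674 and 8217 CPM with 6 pg, so the groups did not overlap. It was 11070, 7993 and 8789 CPM with 2 pg, and 10260 and 20130 CPM in the 2 libraries with 10 pg, a wider spread than in the other groups of 4 hpf. The count of lower members was 18 with RLE scaling, 36 with library totals and 5 to 22 without 1 library, and it was 0 when only the libraries of 4 hpf were fitted, with a median of -0.457 there.

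Large falls included genes without a symbol in the reference. ENSDARG00000115978 measured 2780, 509 and 10100 CPM in the controls and 363, 361 and 266 CPM with 6 pg, a fall of 3.75 ± 0.50 (edgeR adjusted p = 1.09e-05). ENSDARG00000113671 fell by 5.43 ± 0.73 (adjusted p = 1.08e-05), from 15, 2.34 and 43 CPM to 0.518, 0.714 and 0.154 CPM. In both genes control replicate 3 was the highest and control replicate 2 the lowest of the controls. Of genes with a symbol, gpr78a fell by 4.29 ± 1.04 (adjusted p = 0.0053) and btr07 by 4.22 ± 1.13 (adjusted p = 0.0105), the latter not without 6 pg replicate 2 (adjusted p = 0.0563).

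**Figure D5:**
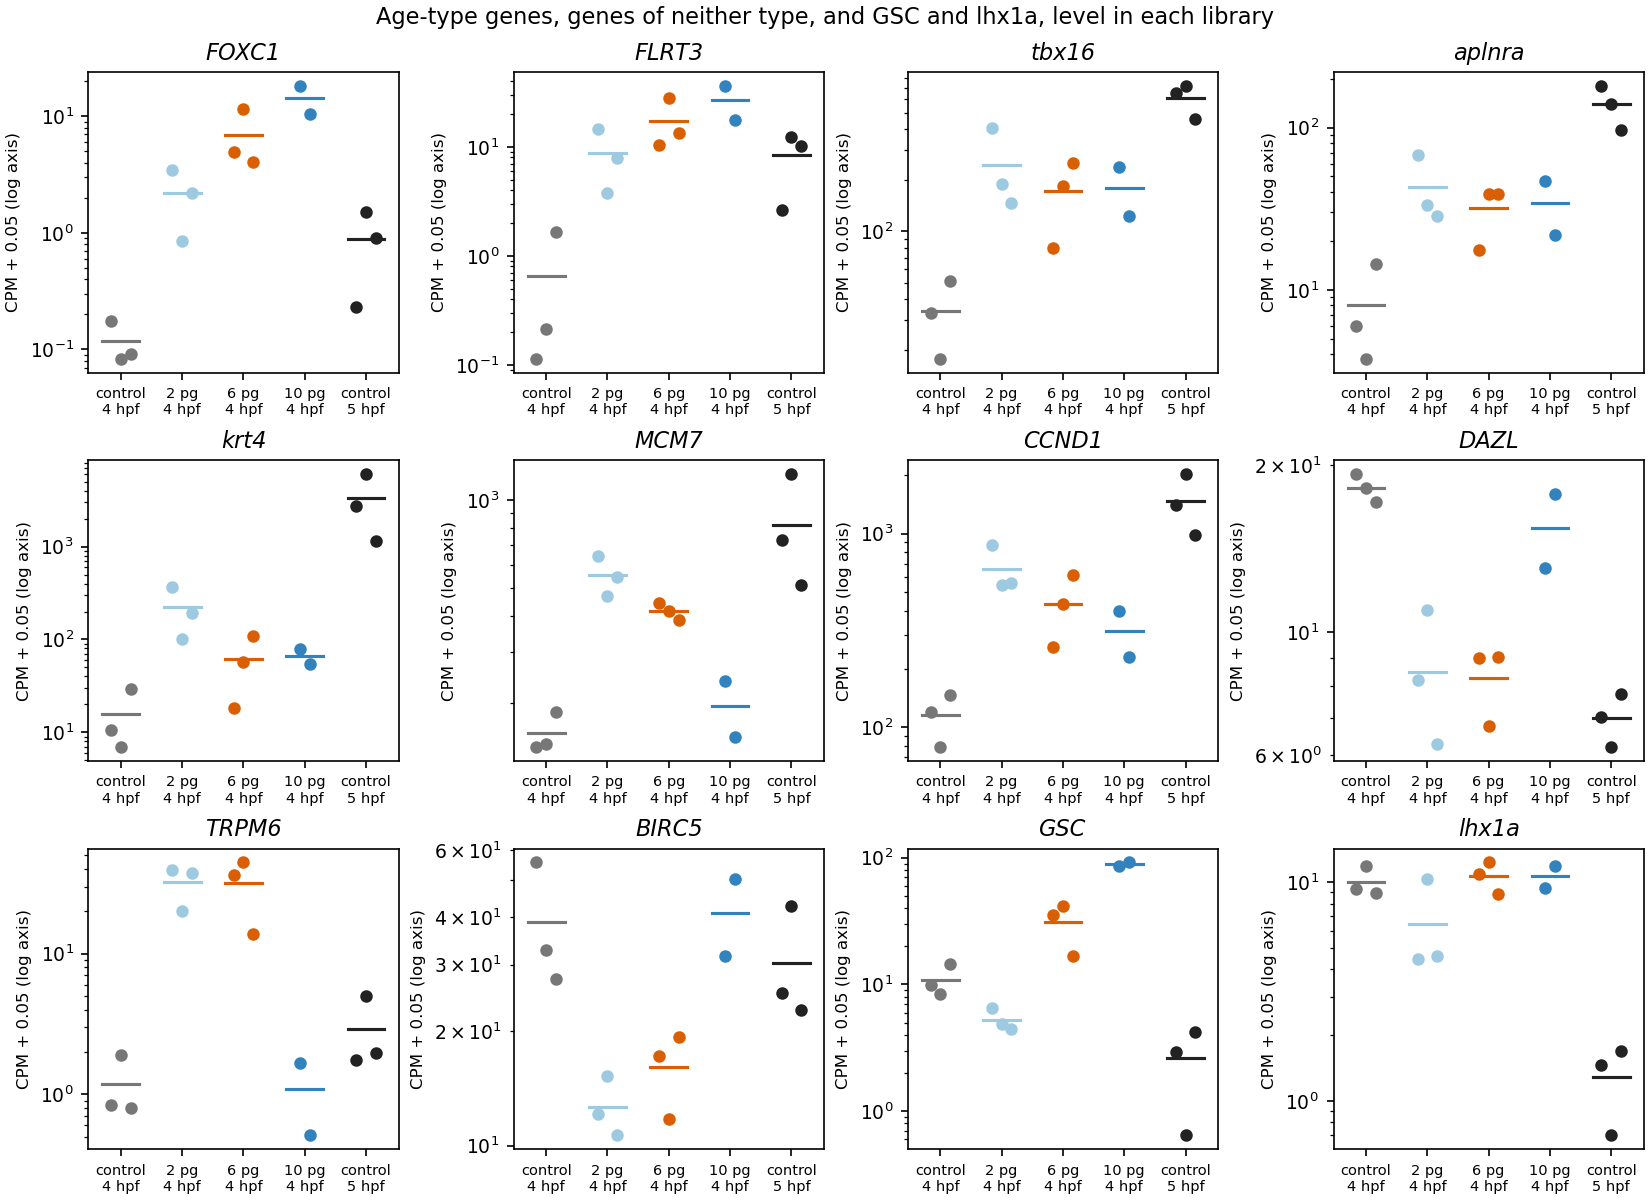
Level of 12 genes in each library (CPM plus 0.05, log axis), with points for libraries and lines for means. They are age-type genes, genes of neither type, and GSC and lhx1a, which were not called with 6 pg at 4 hpf and so have no class. tbx16, aplnra and CCND1 with 6 pg lie between controls of 4 and 5 hpf, krt4 with 6 pg overlaps the controls of 4 hpf in 1 library (18.1 CPM), TRPM6 is high with 2 and 6 pg and low with 10 pg (1.62 and 0.46 CPM), and lhx1a with 6 pg overlaps the controls of 4 hpf.

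Markers of the other cell types that an explant may hold were read beside these results. The yolk syncytial layer, which lies beneath the blastoderm, was checked with 11 tested markers whose summed level was 5.69 to 12.97 CPM in the controls and 3.67 to 6.07 CPM with 6 pg. Of these, 0 rose and 1 fell, the homeobox gene mxtx2, by 2.07 ± 0.71 (edgeR adjusted p = 0.0432), which was called only without control replicate 3 among the 6 fits (highest adjusted p = 0.278). Germ-cell markers summed to 2080 to 2855 CPM in the controls and 1624 to 2002 CPM with 6 pg, with 1 of 13 higher and 2 lower. All 3 were of the age type. In controls of 5 hpf the sum was 811.3 to 1199 CPM, and 3 members rose and 9 fell from 4 to 5 hpf. Beside these and the following lists stand 8.44% of all genes that rose and 7.25% that fell, with a median change of 0.012. In the controls from 4 to 5 hpf, 28.4% of all genes rose and 25.7% fell. On the neural ectoderm list 1 of 12 members rose and 0 fell, and on the epidermal list 3 of 14 rose and 0 fell. With age in the controls, 6 neural members rose and 5 fell, and 10 epidermal members rose and 0 fell. On the list of p53 and stress genes 1 of 24 rose and 0 fell, beside 16 and 2 with age. Of the signalling and movement lists, 3 of 14 Wnt genes rose and 1 fell (median 0.36), 4 of 18 Bmp genes rose and 0 fell (median 1.03), 3 of 18 genes of cell movement and adhesion rose and 1 fell (median 0.34), and 3 of 19 immediate early genes rose and 0 fell (median 0.43). With age in the controls, 4 Wnt genes rose and 3 fell, and 10 Bmp genes rose and 1 fell (median 3.38). Of the movement genes 10 rose and 2 fell with age, and of the immediate early genes 7 rose and 2 fell. The part of such cells in the results was not tested.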

How the data were processed

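Bulk RNA-seq of zebrafish animal-pole explants was deposited as 1 table of read counts per gene, which the authors made with STAR and featureCounts on GRCz11, per the submitters' processing notes. No source used here gives their versions, the annotation or whether strand was used. Of 31465 genes, 28965 had a symbol in the reference table of gene names, and genes without one held 1.25% of the counts. The 6 libraries were taken by title from 45 columns. The third 10 pg replicate at 4 hpf equalled the third CHX-treated 10 pg replicate at 4 hpf in all genes, so both were left out. The remaining 43 libraries in 15 groups were fitted with edgeR 4.0.16 (R 4.3.3, TMM scaling, minimum count 10 and minimum total 15, robust quasi-likelihood, 28 residual degrees of freedom), with Benjamini-Hochberg adjustment at 0.05. DESeq2 1.42.0 was an alternative, beside other scalings, filters, library sets, references, an age covariate, a replicate block and the removal of each library. The standard error is the log2 change divided by the square root of F. Per-library positions were compared by exact permutation.

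The classes, 21 gene lists and named genes were chosen with earlier results of these data known. Named genes were ndr2, the largest changes overall and in each class (at least 5 CPM, libraries not overlapping), called list members, up to 4 uncalled members a list, and all Nodal ligand and endoderm members. Of 434 list entries 342 matched, and 67 with a shared symbol did not. A gene can be on more than 1 list, as chrd is on the prechordal plate, notochord and Bmp lists. In counts simulated for 6 pg against control over 20775 genes, the fit called 30% of 50 genes planted with a 2-fold change, 88% of 50 at 4-fold and 98% of 50 at 8-fold, and 5 genes with no planted change. Planted genes had at least 2 CPM in the controls, and counts were drawn independently, with no shift common to a library. These figures therefore do not cover genes of lower level or such shifts. Replicate numbers did not pair the libraries (correlations of 0.0265, -0.123 and 0.201 between same-numbered deviations), so no block was used. Intervals and floors cover counting error only. Promoter sequences were not analysed here, and 1 gene that the rule names is not reported here.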

Additional observations from a re-analysis of the deposited data

Results flagged for a closer look

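For 26 of 82 genes looked at, the effect of 6 pg (6 pg minus control, log2) differed between 6 and 4 hpf by a test of the difference itself (edgeR interaction contrast, adjusted p below 0.05), and of all genes tested the difference was above 0 for 2.48% and below 0 for 3.28%. It was above 0 in 20 of the 26 and below 0 in 6. A difference above 0 can be a greater rise at 6 hpf or a fall at 4 hpf that was smaller or turned at 6 hpf. Genes chosen for being higher with 10 pg at 6 hpf share the controls of 6 hpf with this test. Genes named for a change with 6 pg at 4 hpf share the libraries of 4 hpf with it. That sharing alone moves the difference below 0 for named genes that rose and above 0 for those that fell. Below, each value is the effect at 6 hpf minus that at 4 hpf.

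Among Nodal ligands, inhibitors and receptors the difference was 3.37 for lft1, 3.16 for lft2, 2.77 for ndr1 and 1.62 for ACVR2A. Among endoderm genes it was 3.84 for mixl1, 2.45 for foxa, 4.63 for OSR1 and 4.25 for GATA6. Organizer and axial genes had differences of 4.98 for GSC, 6.78 for lhx1a, 12.29 for dkk1b, 3.66 for admp and 4.12 for FOXD3. For the T-box gene TBR1 it was 8.24. The value of dkk1b rests on 1 count with 6 pg at 4 hpf. ACVR2A changed by -1.34 at 4 hpf and 0.28 at 6 hpf, and foxa by -1.03 and 1.41. The other differences above 0 were 2.69 for the gene with the shared symbol FZD8, 2.64 for zp2.1, 1.12 for MAD2L1, 1.58 for BIRC5, 3.98 for fhdc2 and 2.83 for ACSL1. MAD2L1 changed by -0.78 at 4 hpf and 0.34 at 6 hpf, BIRC5 by -1.27 and 0.31, zp2.1 by -1.41 and 1.23, fhdc2 by -1.51 and 2.47, and ACSL1 by -1.13 and 1.70.

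The difference was below 0 for spred2a (-2.73), FOXC1 (-4.38), TG (-5.77), MCM7 (-1.09), BTG1 (-1.94) and TRPM6 (-4.93). These 6 genes had risen at 4 hpf. TRPM6 stood at 5.09 CPM in controls and 4.62 CPM with 6 pg at 6 hpf.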

How the results depend on the processing

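Other scalings, DESeq2, all 45 columns and the fit without the 2 pg libraries kept the counts of higher and lower genes with 6 pg at 4 hpf within 1.5 times of 1778 and 1528. The replicate block across all libraries gave 1742 and 1528, and within each age 1652 and 1388. With only the libraries of 4 hpf they were 1008 and 817, the age-type only class held 1349 genes and the neither class 443, and 10 against 6 pg gave 980 and 901. With only the 6 libraries compared, 1379 genes were higher and 1155 lower with 6 pg at 4 hpf. Library totals gave 6630 and 3032 genes for 6 pg against controls of 5 hpf. For 6 against 2 pg, library totals gave 5 higher, no filter 1 and 0, the replicate block 1 and 0, the 4 hpf libraries alone 5 and 0, and DESeq2 128 lower. DESeq2 gave 894 and 1068 genes for the difference between ages. The age covariate reversed krt92 (-0.74), krt4 (-0.41), krt18a.1 (-0.42), GATA2 (-0.081), TFAP2A (-0.24) and YBX1 (-0.10), and the age position was -0.051 on the genes of 5 to 6 hpf. The causes of these shifts were not tested.

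Leaving out 1 library gave 857 to 1702 higher and 700 to 1616 lower genes with 6 pg. It gave 156 to 1662 and 196 to 2012 for 10 against 6 pg, 0 to 43 and 0 to 48 for 6 against 2 pg, 210 to 686 and 283 to 838 for the difference between ages, and 64 to 90 and 0 to 2 for 10 pg at 6 hpf. The classes ran from 15 to 28 genes (Nodal-type only), 6 to 14 (both), 1150 to 2533 (age-type only) and 425 to 1147 (neither). Over single genes and all alternatives, 3308 values stayed called or stayed not called, 337 lost the call and 49 gained one. The direction turned in 6 values of genes called in the main fit. A turn of direction in a gene not called in either fit counts among the 3308. The planned search of promoter motifs was not run. With 3 libraries a group, 2-fold changes were mostly missed in the simulated counts.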
